A study of Homo sapiens with 4 samples.

Results

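The regions described here are the rDNA contact regions of K562 cells that lie on the short arm of chromosome 21, in its centromere models and in the first part of the long arm. A region was taken when its midpoint lay in chr21:1-14000000 of the genome build hg38 and outside chr21:8190000-8490000, the stretch of the reference that holds the rDNA units and the 4C viewpoint. By this rule 2245 of 50751 regions were members in untreated replicate 1 and 2242 of 50221 in untreated replicate 2. In hemin replicates 1 and 2 the members numbered 1629 of 47042 and 1676 of 49689.

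K562 is a human erythroleukemia cell line, and hemin, an iron-containing porphyrin, induces its erythroid differentiation. Untreated K562 cells were compared with K562 cells kept in 50 µM hemin for 108 h. Each group held 2 libraries, described as biological replicates, all from the one cell line. Contacts were read by 4C-rDNA, in which fixed chromatin was cut with EcoRI (GAATTC) and ligated, the circles were shortened with FaeI (CATG), and fragments joined to the intergenic spacer of the rDNA were amplified and sequenced. The comparison asks how rDNA contacts change when the cells differentiate. The label short arm held only in part, since the window ran through the centromere and into 1034 kb of assembled sequence past it. No centromere is marked in the annotation used here, so the limits of 10900000 and 12900000 were set by hand.

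Human rDNA units stand in tandem clusters on the short arms of the acrocentric chromosomes 13, 14, 15, 21 and 22. These clusters come together in nucleoli, which brings the short arms of different chromosomes near each other. The sequence that flanks the clusters is rich in segmental duplications and satellite DNA, much of it shared among the acrocentric chromosomes, so the place of a short read in it is often uncertain.

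The libraries held 19548906 to 34000240 reads, of which 61.8% to 62.2% lay in the rDNA stretch. The shares below are taken of the reads outside that stretch, which came to 12118117 and 12860645 without hemin and to 7400484 and 7842131 with it. A fold change is a ratio of such shares, so that equal read numbers before and after hemin stand for a higher share after it. The cells were measured in bulk, so contacts in more cells and more contacts per cell cannot be told apart. The reads carry no molecular identifiers, so limits based on counts cover counting error only. Replicate sites of the window differed by more than sampling noise, with a median variance 2.37 times (untreated) and 2.22 times (hemin) that of Poisson counts.

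The sequences below are examples on which the results turn, each written 5′ to 3′ on the forward strand as the deposited files give it. Capitals mark the EcoRI site GAATTC and the FaeI site CATG. The first pair belongs to contact sites among the 10 with the highest mean share of reads in the window (for the longer region, its first 300 bases are shown).

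chr21:8989100-8989309: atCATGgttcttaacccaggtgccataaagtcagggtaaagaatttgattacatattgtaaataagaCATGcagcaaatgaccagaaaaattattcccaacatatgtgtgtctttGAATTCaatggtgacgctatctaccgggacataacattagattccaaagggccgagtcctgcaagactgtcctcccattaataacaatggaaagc
chr21:9015473-9015772: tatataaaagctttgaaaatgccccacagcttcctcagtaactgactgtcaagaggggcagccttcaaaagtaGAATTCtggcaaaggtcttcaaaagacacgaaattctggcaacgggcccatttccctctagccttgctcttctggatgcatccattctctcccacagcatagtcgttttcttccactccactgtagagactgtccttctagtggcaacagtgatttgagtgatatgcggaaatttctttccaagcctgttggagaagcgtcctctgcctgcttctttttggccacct

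The next pair comes from the sites with the largest increase and the largest decrease among those with reads in every library. The first region begins with an EcoRI site and ends with a FaeI site, and holds a further FaeI site between them.

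chr21:9869513-9869573: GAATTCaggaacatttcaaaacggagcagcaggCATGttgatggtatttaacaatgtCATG
chr21:9706619-9706723: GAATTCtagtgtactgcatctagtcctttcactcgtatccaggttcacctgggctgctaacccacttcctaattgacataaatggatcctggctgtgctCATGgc

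The last pair shows a region present at 3 places of the window and the strongest region of the centromere models. Each printed sequence held 1 EcoRI site.

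chr21:5701511-5701683: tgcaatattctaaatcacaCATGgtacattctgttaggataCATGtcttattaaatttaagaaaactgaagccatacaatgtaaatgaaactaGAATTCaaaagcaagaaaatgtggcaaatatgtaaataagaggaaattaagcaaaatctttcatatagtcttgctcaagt
chr21:12532165-12532263: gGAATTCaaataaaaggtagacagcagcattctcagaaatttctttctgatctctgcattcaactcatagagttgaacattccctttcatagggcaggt

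The window held a smaller share of the rDNA contacts after hemin. Its regions took 7.70% and 7.63% of the reads outside the rDNA stretch in untreated cells, and 6.05% and 5.97% in hemin-treated cells. The means were 7.67% ± 0.0462 and 6.01% ± 0.0581 (SD, n = 2 each), and both hemin libraries lay below both untreated ones. The log2 ratio was -0.35, and the two-sided exact permutation test gave p = 0.333, the smallest value that 2 libraries against 2 allow. Entered as 1 feature in the genome-wide fit of edgeR's quasi-likelihood test, the window had a log2 fold change of -0.35 with an adjusted p of 0.00119. The share of regions fell as well, from 4.43% and 4.47% to 3.47% and 3.38%.

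The decrease was smaller among regions that occur once than among copied ones. Among regions whose first 32 bases occur once in the reference chromosomes, the window took 2.94% and 3.17% of the reads before hemin and 2.81% and 2.79% after, a log2 ratio of -0.13. This value was -0.071 without untreated replicate 2 and -0.18 without untreated replicate 1, so its size rested on which untreated library was kept. Among regions with an exact copy elsewhere it took 13.4% and 13.2% before and 11.1% and 11.1% after hemin, a log2 ratio of -0.26. In both sets the groups did not overlap. In the whole genome outside the rDNA stretch, copied regions also made up less of the reads after hemin, 39.7% and 38.6% against 45.7% and 45.1%. This split was chosen after the data were seen.

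The 4 blocks of the window did not move together. The distal block, between the end of the short arm and the rDNA stretch, held 3.03% and 2.99% of the reads in untreated cells and 2.31% and 2.26% after hemin. The proximal block, between the rDNA stretch and the centromere, held 4.44% and 4.41% against 3.52% and 3.49%. The centromere models fell most, from 0.0668% and 0.0687% to 0.0126% and 0.0147%, while the block past the centromere rose from 0.162% and 0.163% to 0.212% and 0.210%. The log2 fold changes of edgeR's quasi-likelihood test were -0.40, -0.34, -2.31 and 0.38 in that order, each with an adjusted p of 0.00119. Counted by regions in place of reads, the block past the centromere changed by 0.03 (adjusted p = 0.897). The bar charts of the block shares show these values for each library.

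**Figure D1:**
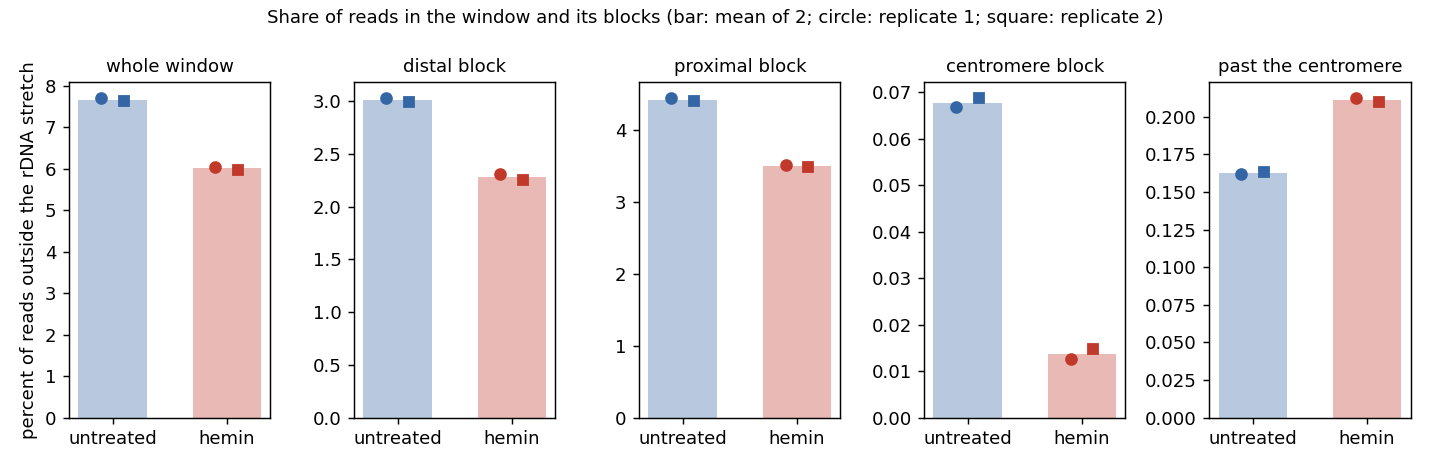
Percent of the reads outside the rDNA stretch that fell in the whole window and in its 4 blocks, by treatment. Bars are means of 2 libraries, circles replicate 1 and squares replicate 2, each panel has its own axis from 0. The whole window, the distal, the proximal and the centromere blocks were lower after hemin, and the block past the centromere was higher (0.162% and 0.163% against 0.212% and 0.210%).

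Contacts were dense in the window for its size. Its 7206 kb of assembled sequence made up 0.245% of the genome outside the rDNA stretch and held 129 and 136 reads per kb in the untreated libraries, against 4.13 and 4.38 over the genome. The sequence of chromosome 21 past the window, on the same chromosome as the rDNA stretch of the reference, held 10.89 and 11.35 reads per kb in those libraries. Windows were set likewise on the other acrocentric chromosomes, up to 19 Mb on chromosomes 13 and 14, 21 Mb on 15 and 17 Mb on 22. They held 2829 kb (13), 2784 kb (14), 3909 kb (15) and 5553 kb (22) of assembled sequence, so most of their length was gap. How much of that sequence was short arm was not examined. The windows of chromosomes 22 and 14 came close to that of chromosome 21, with 124 and 130.5, and with 106 and 115 reads per kb. Those of chromosomes 13 and 15 held 7.11 to 8.50.

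The window also differed from the rest of chromosome 21 in its response. The log2 ratio of the share of the window to the share of chromosome 21 past it was 1.39 and 1.41 in untreated cells and 1.09 and 1.06 after hemin, a change of -0.33 (exact permutation p = 0.333, groups not overlapping). Chromosome 21 past the window itself had a log2 fold change of -0.02 (adjusted p = 0.173 by edgeR), which passed the threshold under TMM scaling (-0.24) and under DESeq2 (-0.13). Of the other acrocentric windows, those of chromosomes 22 and 14 had log2 fold changes of -0.26 and -0.24 and that of chromosome 13 of -1.44, all past the threshold, and that of chromosome 15 of -0.27 (adjusted p = 0.237). As a ratio of shares the chromosome 15 value was -0.090 without untreated replicate 1 and -0.43 without untreated replicate 2. Relative to chromosome 22 the window changed by -0.09, from log2 ratios of 0.44 and 0.44 to 0.35 and 0.35 (exact permutation p = 0.333). With each region counted once this relation turned to 0.35, since the regions of chromosome 22 changed by -0.73 and those of the window by -0.38.

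The short arm of hg38 is not one sequence but a row of assembled stretches set apart by gaps, and the contacts were spread over them very unevenly. To describe the stretches, 32 bases were taken every 250 bases and looked up in the reference chromosomes. Stretches of 4 kinds could then be told apart by rules set after the contacts had been seen, namely 4 stretches with at least 90% of these words on the long arm, 12 with at least 80% repeated elsewhere in the window, 9 of the centromere, and 11 others. The plot of reads per kb by stretch shows the kinds along the arm.

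**Figure D2:**
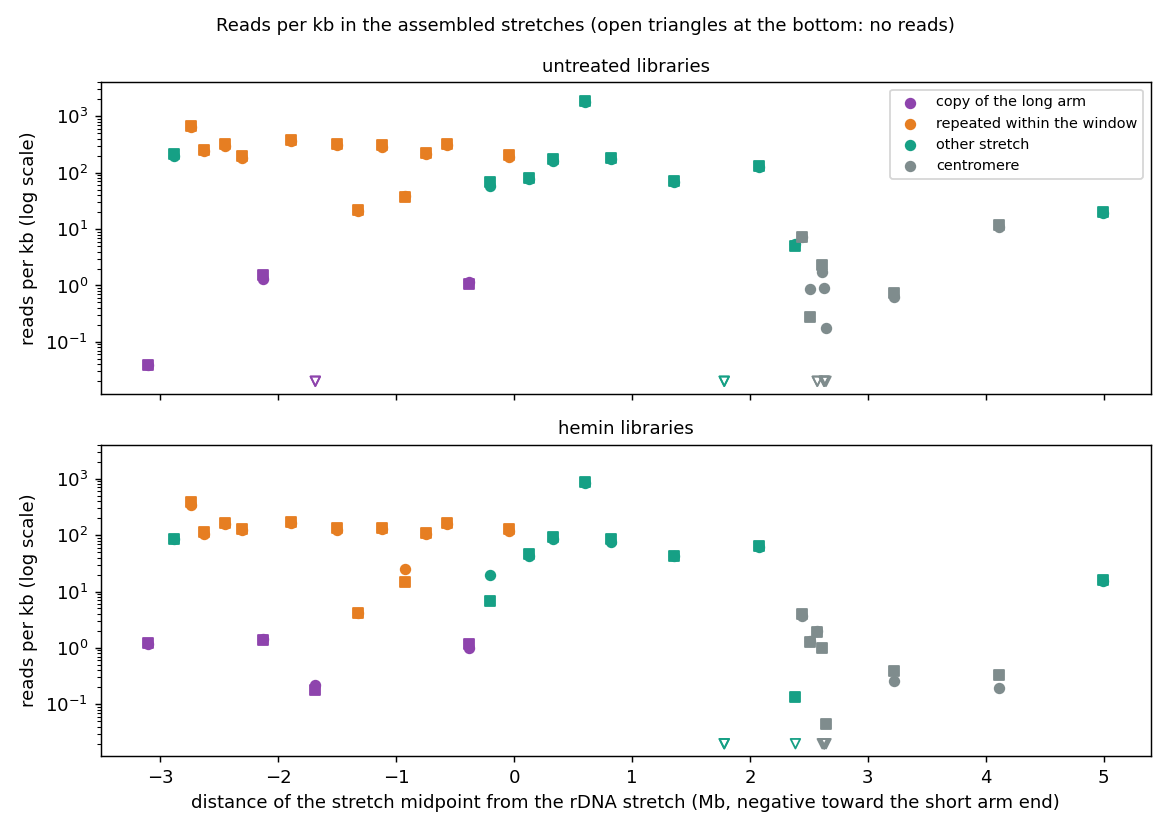
Reads per kb (log axis) in each assembled stretch of the window against the distance of its midpoint from the rDNA stretch in Mb, negative toward the end of the short arm. Circles are replicate 1, squares replicate 2, open triangles stretches without reads, and colours the kind of stretch. The 4 copies of long arm sequence lay at 0 to 1.56 reads per kb in the untreated libraries, the stretches repeated within the window at 21.2 to 670.15, and one stretch of the proximal block stood highest with 1789 and 1890.

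A single stretch of the proximal block, chr21:8986605-9196087, held 374816 and 395839 reads before hemin and 173838 and 183204 after. That was 40.2% and 40.3% of the window's reads before and 38.8% and 39.1% after hemin, on 209 kb of sequence. It carried 1789 and 1890 reads per kb in untreated cells and 830 and 875 in hemin-treated cells. The log2 fold change was -0.40 (adjusted p = 0.00119 by edgeR), and without this stretch the log2 ratio of the window was -0.33 in place of -0.35. Of its words 39.4% were found once in the reference chromosomes and 32.5% on another acrocentric chromosome.

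The 4 stretches that copy the long arm were nearly empty of contacts. They make up 626 kb of the distal block, and 95.1% to 98.4% of their words recur past the window on chromosome 21. The stretch at chr21:5010001-5166246 held 6, 6, 185 and 190 reads in untreated replicates 1 and 2 and hemin replicates 1 and 2. The stretch at chr21:6427259-6580181 held 0, 0, 34 and 27 reads, at least 16.7-fold more after hemin against a floor of 3 reads per library. The stretches at chr21:5966594-6161371 and chr21:7743701-7865746 held 259, 303, 277 and 264 reads and 143, 129, 124 and 141 reads. Together they carried 0.652 to 0.994 reads per kb, below the 6.46 to 11.35 of chromosome 21 past the window and far below their neighbours, in which the 12 repeated stretches carried 109.7 to 242 reads per kb in all. Per EcoRI site the 4 stretches held 3.07 to 4.68 reads and the 12 repeated ones 427 to 943, so they also differed per cut site. All 4 stretches were higher after hemin by edgeR (adjusted p from 0.00119 to 0.0254), on 0 to 5 regions per library in each. The log2 fold change was 5.64 for the stretch from 5010001, 0.66 for that from 5966594 and 0.67 for that from 7743701, and that from 6427259 has only the bound given above. In the same fit 40.5% of the 100 kb bins of the genome were higher and 31.4% lower.

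These 4 stretches are also where the annotation marks most of its doubtful genes. Of 142 GENCODE genes with their midpoint in the window, 19 had the type artifact, and 18 of these lay in the 4 stretches. Of the 19, 6 held reads assigned to them alone, among them ENSG00000279493 (chr21:5011799-5017145) with no untreated reads and 185 and 190 hemin reads, and ENSG00000273590 (chr21:7744951-7758630) with 143 and 129 untreated reads and none after hemin. A list of 10 short arm duplicates of long arm genes (CBSL, U2AF1L5, CRYAA2, SIK1B, KCNE1B, SMIM11B, SMIM34B, FAM243B, GATD3B and H2BS1) could not be placed, as neither annotation used here carries these symbols. Their partners on the long arm held few or no reads within 2.5 kb. CBS, which makes cystathionine, held 0, 0, 36 and 24 reads, the potassium channel subunit gene KCNE1 held 41, 121, 122 and 122, and SMIM11 held 140, 106, 0 and 0. U2AF1, CRYAA, SIK1, SMIM34 and GATD3 were at 0 in every library, and FAM243A was not found.

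The 12 stretches repeated within the window span 1393 kb and took 2.66%, 2.62%, 2.06% and 2.04% of the reads in the 4 libraries, both hemin values below both untreated ones. Of these stretches 8 fell and 1 rose by edgeR, with log2 fold changes from -1.63 to 0.12, beside 31.4% of the 100 kb bins of the genome lower and 40.5% higher. The one that fell most, chr21:6789086-6934219, held 3076, 3142, 611 and 616 reads. The one that rose, chr21:5846010-5916593, held 12932, 13853, 8754 and 9061 reads (log2 fold change 0.12, adjusted p = 0.0162), and its direction turned to -0.09 under TMM scaling. The stretch chr21:8099840-8189999, which ends at the rDNA stretch, held 17229, 18237, 10721 and 11408 reads and a log2 fold change of 0.03 (adjusted p = 0.134).

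Reads from sequences that occur several times in the window were often shared out among the copies. The region printed above from chr21:5701511-5701683 lay in a contact site whose 3 places, at 5701511, 7133664 and 7622794, held 5325, 5285 and 5406 reads in untreated replicate 1 and 2058, 2018 and 1991 in hemin replicate 1. A second such set, at 5693662, 7125815 and 7630661, held 4278, 4106 and 4288 untreated and 1841, 1749 and 1818 hemin reads in replicate 1. The copies were nearly equal within each set and library. Over 248 sets of exact copies confined to the window, 149 held at least 100 reads in untreated replicate 1, in 86 of these every place held reads, and the median ratio of the highest to the lowest place was 1.19. The hemin libraries had median ratios of 1.19 and 1.23. The upper quartile of this ratio was 2.23 to 4.22 over the 4 libraries, so many sets were shared out unevenly. Every place held reads in 55.7% to 59.3% of the sets with at least 100 reads. Such counts cannot tell which of the copies was in contact, and such sites are not independent observations.

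Merged over the 4 libraries, the window held 3268 contact sites. Of these, 800 were met in all 4 libraries and held 89.6% to 91.3% of the window's reads, 681 were met in both untreated libraries and no hemin library, and 332 in both hemin libraries and no untreated one. The last 2 sets held 6.54% and 6.62% of the untreated and 6.31% and 6.39% of the hemin reads. By number they were 20.8% and 10.2% of the window's sites, against 25.8% and 25.1% of the sites in the rest of the genome. In the rest of the genome the sites met in all 4 libraries were 3.59% of sites, against 24.5% in the window, and held 37.7% to 44.9% of the reads. The shared sites thus carried most contacts on the short arm, while in the rest of the genome most reads lay outside such sites.

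The 10 sites with the highest mean share all lay in the stretch chr21:8986605-9196087 and together held 23.4% to 24.1% of the window's reads in each library. Of the 10, 9 fell after hemin and 1 rose, where over the genome 39.6% of the tested sites fell and 38.7% rose. The strongest, chr21:9006499-9006834, lay in an intron of ENSG00000279501, a long non-coding RNA gene, and had 49106 and 52526 reads before hemin and 21963 and 23208 after. That was 4052 and 4084 reads per 1000000 reads outside the rDNA stretch (RPM) before and 2968 and 2959 after (log2 fold change -0.46, adjusted p = 0.000639 by edgeR). Most of its strongest region was repeat-masked (86.5%), and its first 32 bases had 6 exact matches in the reference chromosomes. The site was nonetheless present in the repeat-filtered files of both groups.

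The site chr21:8989099-8989641 was the one of the 10 that rose. Its reads numbered 26910 and 27713 before and 22033 and 22994 after hemin, or 2221 and 2155 against 2977 and 2932 RPM (log2 fold change 0.43, adjusted p = 0.0012). Its first 32 bases were found once in the reference chromosomes, where near-identical copies were not counted. It lay 1669 bases from ENSG00000264063, outside any annotated gene. After hemin it stood level with the strongest site, whose mean was 2964 ± 5.92 RPM against 2955 ± 31.9 here (SD, n = 2 each). In the repeat-filtered files it held the highest value of the window in the hemin group, and chr21:9006499-9006834 did so in the untreated group.

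The third site, chr21:9015394-9016129, also in an intron of ENSG00000279501, fell from 2898 and 2795 to 2260 and 2233 RPM (log2 fold change -0.34, adjusted p = 0.00222). Its strongest region held no masked base and its first 32 bases occurred once. The largest decrease of the 10 was at chr21:9030569-9031073, from 1009.9 and 1006 to 589 and 592 RPM (-0.77, adjusted p = 0.000638). The smallest were at chr21:9032995-9033357 (-0.22) and chr21:9177809-9178238 (-0.14), and both turned to increases of 0.02 and 0.10 under TMM scaling. One of the 10, chr21:9110749-9111251 in an intron of the long non-coding gene TEKT4P2, had a strongest region that was repeat-masked throughout and was present in the untreated repeat-filtered file only, although it held 6726 and 7113 hemin reads.

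Of 1601 sites of the window that could be tested, 314 were higher and 685 lower after hemin at an adjusted p under 0.05 (edgeR's quasi-likelihood test, Benjamini-Hochberg over all sites). Over the genome, 38.7% of the 53342 sites tested were higher and 39.6% lower, 78.3% in all. In the window 19.6% were higher and 42.8% lower, and its median log2 fold change was -1.01 against -0.24. Sites without reads in a group enter that median with fitted values that depend on the prior count, and over the 750 tested sites with reads in all 4 libraries it was -0.46. Sites with fewer than 20 reads over the 4 libraries were not tested, and a site met in one group alone passed this filter only through that group. Sites of both libraries of one group alone made up 170 of the 314 higher and 343 of the 685 lower calls. Sites of both hemin libraries alone were 10.2% of all sites in the window and 25.1% in the rest of the genome. The shares called in the window and over the genome thus compare unlike mixes of sites. Of the 100 sites with the highest mean share, 69 fell and 21 rose, with a median log2 fold change of -0.38. Without untreated replicate 1 or 2, 576 (294 higher, 282 lower) and 573 (283 higher, 290 lower) sites were called, with the lone untreated library assumed to vary like the hemin ones. The scatter plot of contact sites shows the strong sites just below the diagonal and the sites met in 1 group along the margins.

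**Figure D3:**
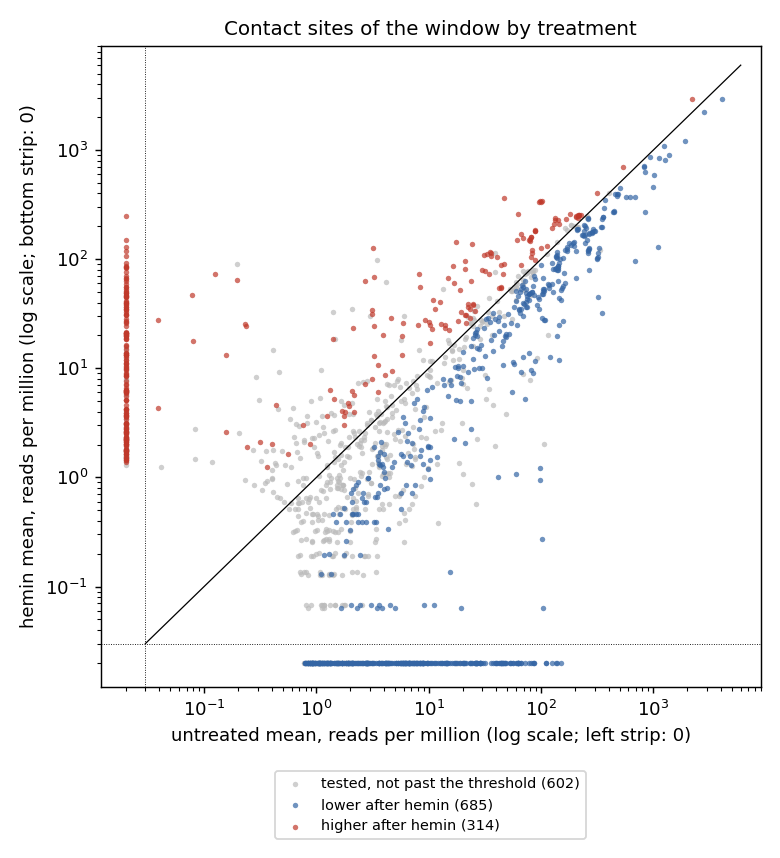
Mean RPM of each tested contact site of the window in untreated (x axis) and hemin-treated cells (y axis), both on log axes, with sites without reads in a group drawn in the strips at the left and the bottom. Blue points (685) were lower and red points (314) higher after hemin by edgeR and grey points did not pass the threshold. The strongest sites lay near the diagonal, most of them below it.

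Of the 750 tested sites with reads in every library 460 passed the threshold. The 78.3% called over all sites tested in the genome includes sites met in one group alone, so the sets are unlike. In the window such sites passed in 343 of 358 (untreated alone) and 170 of 177 (hemin alone) cases. They entered the test only through the group that held their reads, so these counts are no separate support for a change. The share called among such sites over the genome is not given here. Among sites with reads in every library, most of the largest changes lay in the proximal block. At chr21:9869512-9869573 the reads numbered 1 and 1 before and 144 and 124 after hemin. At chr21:9732686-9732825 they numbered 24 and 57 against 951 and 975 (log2 fold change 5.29, adjusted p = 0.00376). The site chr21:9653541-9653644 lay in an intron of ENSG00000286103 and had 1 exact match in the reference chromosomes. It held 26 and 42 against 477 and 488 reads (4.54, adjusted p = 0.00121). The site chr21:10337041-10337294 met an exon of ENSG00000277693 and held 41 and 40 against 465 and 595 reads. In the other direction, chr21:9706547-9706723 fell from 1168 and 1255 to 5 and 14 reads, a mean of 96.98 against 1.23 RPM. Thus sites with opposite changes stood within the same stretch, chr21:9527144-10169868, whose total had a log2 fold change of -0.0015 (adjusted p = 0.972).

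Sites met in one group alone held up to 1960 reads in a library. The strongest of untreated cells, chr21:9943841-9943982, held 1777 and 1960 reads and none after hemin, at least 379.5-fold more against a floor of 3 reads per library. The next, chr21:9724928-9725078, held 1713 and 1772 reads and was also absent from both hemin libraries (at least 354-fold). It had 1 exact match in the reference chromosomes and no masked base in its strongest region. The strongest of hemin-treated cells, chr21:5352660-5352752, held 1899 and 1928 reads and none before (at least 1045-fold). Its first 32 bases had 39 matches in the reference chromosomes, 27 of them on chromosomes that are not acrocentric. The site was in neither repeat-filtered file. The next of these, chr21:13332761-13332893, had 1 match and a strongest region that was masked throughout, and held 1145 and 1123 reads after hemin and none before. All 5 sites of untreated cells named by the rule were in the repeat-filtered file of their group, against 1 of the 5 of hemin-treated cells.

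Contacts of the window were met again in the other treatment group more often than contacts of the rest of the genome. Of all regions, 51.9% and 52.8% of the untreated and 69.2% and 68.3% of the hemin regions overlapped a region of at least 1 library of the other group, against 15.7% to 16.2% in the rest of the genome. Weighted by reads the shares were 92.7% to 93.4% in the window and 40.1% to 50.1% in the rest, while the windows of chromosomes 14 and 22 had 94.1% to 97.6% and 90.2% to 92.5%. The difference in percentage points of regions was 36.0 and 36.6 in the untreated and 53.5 and 52.6 in the hemin libraries. Its mean was 44.7 ± 9.68 (SD over 4 libraries, both groups together), positive in 4 of 4 libraries. The two-sided exact sign-flip permutation p was 0.125, the smallest that 4 libraries allow. Between replicates of one group the difference was smaller, with 77.7% to 81.0% of regions met again in the window and 69.9% to 74.0% in the rest.

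The size of this difference depended on whether regions had exact copies. Among regions of over 100 reads, 79.0% to 85.5% were met again in the other group in the window and 15.2% to 19.3% in the rest. Among those whose first 32 bases occur once, 82 to 120 regions per library, the shares were 68.9% to 73.5% and 8.47% to 11.3%. With an exact copy they were 81.1% to 87.8% and 46.5% to 49.0%, and with all copies inside the window 92.3% to 99.4%. Weighted by reads, the regions of over 100 reads with an exact copy gave 94.7% to 95.2% in the window and 85.5% to 86.9% in the rest, a difference of 8.77 percentage points against 47.9 over all regions. Chromosome 21 past the window gave only 19.6% to 20.6% for regions of over 100 reads, while the window of chromosome 22 gave 69.7% to 79.8%. The plot of regions met again in the other group sets these values side by side.

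**Figure D4:**
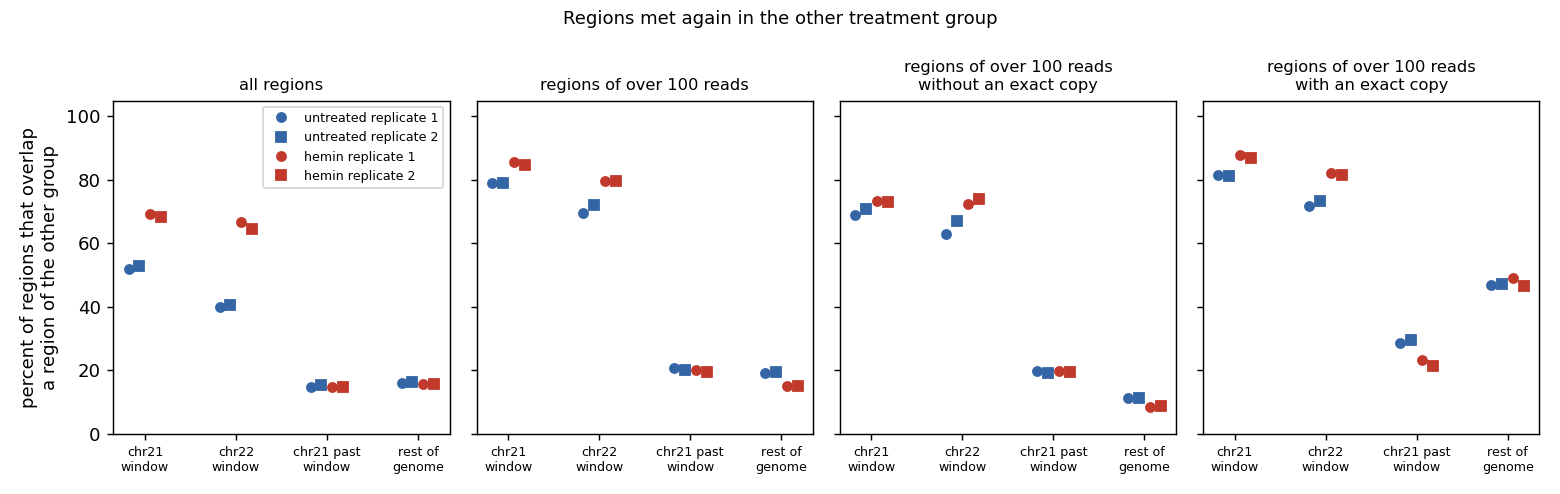
Percent of regions that overlap a region of at least 1 library of the other treatment group, for 4 sets of regions (panels) in the chromosome 21 window, the chromosome 22 window, chromosome 21 past the window and the rest of the genome. Each point is 1 library (blue untreated, red hemin, circle replicate 1, square replicate 2). In all 4 panels the chromosome 21 window lay above the rest of the genome, also for regions of over 100 reads without an exact copy (68.9% to 73.5% against 8.47% to 11.3%).

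Within the window this recurrence differed among the blocks. By reads it was 96.3% to 97.5% in the distal block and 93.6% to 94.6% in the proximal block, but 29.6% to 34.2% past the centromere. In the centromere models 15.4% and 15.4% of the untreated reads and 63.4% and 65.6% of the hemin reads lay in regions met again in the other group. Past the centromere the values by reads were thus below those of the rest of the genome, unlike on both sides of the rDNA stretch. Counted by regions, the block past the centromere lay above the rest, with 22.07% to 27.97% met again against 15.68% to 16.24%.

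The members were compared with the repeat-filtered files, which hold 1 pooled list per group of regions found in both replicates. Of the member regions 42.7% and 42.6% in untreated cells and 39.6% and 37.7% after hemin overlapped the list of their group, close to the 38.0% to 41.0% of the rest. By reads the shares were 64.3% and 64.6%, and 53.7% and 53.9%, against 47.6% to 48.2% in the rest. The window exceeded the rest by 16.1 and 16.7 percentage points of reads in untreated cells and by 5.57 and 6.34 after hemin. The mean over the libraries was 11.2 ± 6.06 (SD, n = 4, exact sign-flip p = 0.125), a spread that includes the difference between the groups. The lists held 954 regions of the window in untreated cells and 632 after hemin, with 144 and 25 of them in the centromere models.

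EcoRI sites set the window apart in opposite ways in reads and in regions. Widened by 100 bases, 38.0% and 38.7% of the untreated and 43.2% and 42.1% of the hemin member regions held GAATTC, below the 53.0% to 56.8% of the rest. By reads, 92.0% to 93.7% of the window lay in such regions, against 66.9% to 72.2% of the rest. Member regions without a cut site were thus many but weak. With 500 bases on each side the excess of the window in reads shrank to 2.33 percentage points. Repeat-masked bases made up at least 50% in 60.1% to 65.2% of the member regions and 60.3% to 65.5% of the others.

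Exact copies were the rule in the window. Only exact copies in the placed reference chromosomes were sought, so near-identical copies and copies outside those chromosomes were not counted. The first 32 bases of a region occurred elsewhere in the reference for 79.3% and 77.7% of the untreated and 72.4% and 71.7% of the hemin reads, against 36.5% to 42.9% in the rest (difference 35.4 ± 0.699 percentage points, SD, n = 4, exact sign-flip p = 0.125). Copies on chromosome 13, 14, 15 or 22 were found for 23.1% to 26.9% of the window's reads and copies on other chromosomes for 36.2% to 39.8%. For 23.8% to 28.5% of the reads all copies lay inside the window, and for 0.971% to 1.85% a copy lay past it on chromosome 21. A copy in the rDNA stretch was found for 4.65% and 4.71% of the untreated and 6.70% and 6.77% of the hemin reads. Whether these belong to the excluded stretch was not tested. The assignment of reads with exact copies to chromosome 21 therefore rests on the reference and the aligner. At such regions contacts of the other acrocentric chromosomes cannot be told apart from those of chromosome 21.

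The centromere models had the largest relative decrease of the 4 blocks. They span 2026 kb without a word that occurs only once in the reference, and all of their words recur on another acrocentric chromosome. One stretch, chr21:12283223-12915808, held 6771 and 7405 of the 8212 and 8950 untreated reads of the 9 centromere stretches and 125 and 210 after hemin (log2 fold change -4.70, adjusted p = 0.0019). Its strongest site, chr21:12532165-12532263, held 483 and 629 untreated reads and none after hemin, and its first 32 bases had 1712 matches, 428 in the window and 1284 on other acrocentric chromosomes. The stretch chr21:11029553-11093087 went the other way, with no untreated reads and 128 and 124 after hemin, at least 68.9-fold more. Regions of the block numbered 283 and 281 before and 56 and 66 after, and 37.9% to 51.2% were met again in the other replicate, the lowest of the 4 blocks.

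Genes of the window are few, and 2 of its 142 annotated genes were protein-coding. Reads were given to a gene when the region, extended by 2.5 kb at both ends, touched that gene and no other. In this way 44.8% to 46.1% of the window's reads were assigned, to 85 genes. Of 80 genes tested, 22 were higher and 40 lower after hemin by edgeR, against 41.1% higher and 32.6% lower (73.7% in all) of the 8354 genes tested over the genome. The median log2 fold change was -0.34 in the window and 0.69 over the genome. Genes without reads in a group enter these medians with fitted values that depend on the prior count. Without widening, 41 of 51 genes were called.

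Long non-coding RNA genes took most of the assigned reads, with 27 of the 38 annotated holding reads, 6 higher and 16 lower after hemin. ENSG00000279501 (chr21:8996496-9018670, minus strand) led with 124597 and 130477 untreated and 58224 and 61305 hemin reads (log2 fold change -0.38, adjusted p = 0.00104). TEKT4P2 (ENSG00000291050, chr21:9068325-9129773, minus strand), annotated as a long non-coding gene and named after the tektin family of ciliary proteins, held 56762 and 59321 against 24402 and 25827 (-0.50, adjusted p = 0.00104). Both lie in the stretch with the most contacts. The largest decrease among the 8 leading genes was at ENSG00000279669 (chr21:5232668-5243833) of the distal block, with 25190 and 27076 untreated reads and 4807 and 5034 after hemin (-1.70, adjusted p = 0.00104).

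The other leading genes changed less. ENSG00000278903, ENSG00000280145, ENSG00000286033 and ENSG00000274333 had log2 fold changes of -0.61, -0.51, -0.42 and -0.24, each past the threshold. ENSG00000290523 of the proximal block held 9262 and 9903 untreated and 6886 and 6606 hemin reads, a log2 fold change of 0.21 that did not pass (adjusted p = 0.0541). Of the 8 leading genes, 7 were thus lower after hemin, where over the genome 32.6% of the genes tested were lower and 41.1% higher. ENSG00000278903, ENSG00000280145 and ENSG00000274333 lie in stretches with 90.5% to 100% of words repeated within the window, so they may not be independent cases.

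Apart from TEKT4P2, each gene of the pericentromeric families held at most 4117 reads in a library, and the families did not share a direction. TPTE, a testis gene that encodes a transmembrane phosphatase homologue, held 111 and 129 untreated reads from a single region and none after hemin (at least 24.4-fold). POTED, of the primate POTE ankyrin family, held 329 and 373 reads before and 405 and 402 after hemin (log2 fold change 0.92, adjusted p = 0.0027), in 1 region of untreated replicate 1 and 6 of hemin replicate 1. IGHV1OR21-1, an orphan immunoglobulin heavy chain variable segment, held 847 and 803 against 660 and 730 (0.46, adjusted p = 0.0183). ANKRD30BP1, a pseudogene of an ankyrin repeat family, held 1695 and 1810 against 1665 and 1799 (0.70, adjusted p = 0.00125), and ANKRD30BP2 held 73 and 3 against 350 and 366, which did not pass (adjusted p = 0.112). SNORA70 was met after hemin only, with 28 and 35 reads. By family, the symbols that begin with TPTE and TEKT4P each gave 1 gene lower, those with POTE, ANKRD30, IGHV and SNORA each 1 higher, and LINC 1 higher and 1 lower of 4 with reads. Genes beginning with BAGE, ANKRD20, CYP4F, MIR and RNU held no reads assigned to them alone, and no FRG gene was annotated in the window.

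Past the centromere the contacts were sparser than on either side of the rDNA stretch. Most sites were met in one group alone, as in the rest of the genome. Its assembled stretch held 18.98 and 20.2 reads per kb in untreated cells and 15.2 and 15.9 after hemin. The block held 143 and 154 regions before and 145 and 145 after. Of its 169 sites tested 70 were higher and 59 lower, beside 38.7% higher and 39.6% lower of all sites tested in the genome. Of its 298 sites, 25 were met in all 4 libraries, 90 in both untreated libraries alone, 88 in both hemin libraries alone and 79 in 1 library. In the rest of the genome outside the window these kinds were 3.59%, 25.8%, 25.1% and 40.8% of sites. The strong site chr21:13166227-13166269 held 1593 and 1800 untreated reads and none after hemin, and its first 32 bases occurred once. The site chr21:13076468-13076537 held 946 and 1019 hemin reads and none before, and lay 9435 bases from ANKRD30BP2. LINC01674, a long non-coding gene of this block, held 674 and 699 reads before and 1211 and 1208 after hemin (log2 fold change 1.53, adjusted p = 0.00104).

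In bins of 100 kb, 82 of the window's 83 were tested, 23 were higher and 44 lower after hemin. Over the genome 40.5% of bins were higher and 31.4% lower, 71.9% in all, and the median log2 fold change was 0.72 against -0.35 in the window. These medians include bins without reads in a group, whose fitted values depend on the prior count. Bins of the window were thus more often lower than higher, and those of the genome the other way.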

How the data were processed

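Fixed K562 chromatin was cut, ligated and amplified from the rDNA, and paired reads of 150 nt were sequenced by the authors on a HiSeq instrument. Per the submitters' processing notes the tools were cutadapt 3.5, BWA 0.7.17-r1188, SAMtools 1.14 and bedtools 2.29.1, on hg38. The deposited file of each library lists regions with their sequence and a read count, with no normalization. The repeat-filtered files hold 1 signal value per region, which the authors made by intersecting both replicates of a group and removing repeats. No removal of duplicate reads and no mapping quality filter is stated, and how reads with several equal matches were placed is not given in the sources used here. Such reads touch most values of the short arm.

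Members were chosen by the midpoint of the region, and overlapping regions of the 4 libraries were merged into contact sites. Counts per site, 100 kb bin and gene (GENCODE 44) with at least 20 reads over the libraries were tested by edgeR 4.0.16 (glmQLFit, glmQLFTest, R 4.3.3). Library size was the reads outside the rDNA stretch, so a fold change is a ratio of shares, and p-values were adjusted by Benjamini-Hochberg over the genome (threshold 0.05). Single values per library were compared by exact permutation. In simulated data 200 features were changed 4-fold. The share recovered was 40.5% in the table of 53342 sites, 64% in that of 18535 bins and 78.5% in that of 8354 genes. Of the calls 5.81%, 2.29% and 3.68% were false. Each simulated rate started from a mean over both groups, so sites met in one group alone were not modelled. In the real data 78.3% of the tested sites were called, so these shares may not carry over. DESeq2 1.42.0 and TMM scaling were among the alternatives. Python 3.11.15 was used for the rest.

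Sites were named by rule: the 10 of highest mean share, the 5 highest and 5 lowest log2 fold changes among called sites with reads in every library, and the 5 strongest of each group with none in the other. Genes were named as the 8 with most reads and the duplicated genes of a list. The members, rules and lists were chosen with earlier results of these data known. The sets of repeated copies, the sites of the centromere and past it, the artifact genes and the pericentromeric genes given by name were chosen after their values were seen. No column was without a sample or group. The sequences of some named sites are not reported here.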

Additional observations from a re-analysis of the deposited data

How the results depend on the processing

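On the log2 scale the change of the window's share was -0.38 with each region counted once, -0.58 over repeat-filtered regions, -0.37 up to 13 Mb, -0.39 with the rDNA stretch widened by 500 kb and -0.097 as a share of all chromosome 21 reads outside the rDNA stretch, the window included. In alternatives chosen after seeing the data it was -0.33 without the stretch of most reads and -0.13 over regions without an exact copy (-0.18 to -0.071 without 1 library), and relative to chromosome 22 it turned from -0.091 to 0.35 with regions counted once. Leaving out a library gave -0.36 to -0.34. With regions counted once the blocks changed by -0.27 (distal), -0.26 (proximal), -2.15 (centromere) and 0.028 (past it), and other windows by -1.90 (chromosome 13), -1.19 (14), -0.73 (22) and 0.081 (chromosome 21 past the window, a turned direction). The cause was not tested.

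The main fit called 999 sites. Refits without 1 library, which leave 1 library in a group, called 573 to 958 sites in total. Not all of these were among the 999. With regions within 2.5 kb merged, where fewer sites were tested, 395 of 556 were called. The 67 bins became 19 of 73 with regions counted once and 337 of 478 at 10 kb. The 62 genes became 41 of 51 without widening. The excess of reads at EcoRI sites was 2.33 percentage points at 500 bases, and that of exact copies 40.6 with the last 32 bases. With TMM scaling the named sites moved by a median of 0.23, the windows and stretches by -0.21 and the genes by -0.22, and with DESeq2 by 0.18, -0.11 and -0.17. Directions turned at site chr21:9032995-9033357 (0.023, TMM), site chr21:9177809-9178238 (0.10 TMM, 0.045 DESeq2), the stretch from 5846010 (-0.087 TMM, -0.21 with regions counted once) and the gene CTBP2P9 (-0.077 TMM, -0.022 DESeq2, from 0.14). Of 269 recomputed values of the 30 named sites without the block below, 10 lost the call and 3 turned, the cases named above. Of 411 values of 42 windows and stretches 33 lost the call, in 17 of the 42, and of 223 values of 25 named genes 19, in 6.

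The groups share replicate numbers. Deviations of same-numbered libraries had correlations of -0.00167 over 2965 sites and -0.0308 over 5435 bins of the genome. In the window they were 0.0344 over 536 sites and 0.0399 over 66 bins. With 2 libraries per group these values cannot show whether same-numbered libraries were prepared together. With a replicate block in edgeR the window changed by -0.35 as before (adjusted p = 0.0623), and 0 sites, 0 bins and 11 genes were called, against 449, 57 and 43 at an unadjusted p under 0.05. DESeq2 without the block called 957 sites, 69 bins and 62 genes.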
